A study of Gallus gallus with 6 samples.

Results

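The genes described here are the subunits of the muscle nicotinic acetylcholine receptor and the proteins of the agrin and MuSK pathway that gather the receptor under the nerve ending. They were taken by name: CHRNA1, CHRNB1, CHRND, CHRNG, MUSK, RAPSN, DOK7, LRP4, AGRN and COLQ. Of these 10 genes, 9 had an entry among the 26591 gene entries of the deposited tables, and CHRNB1 had no entry of that name. The libraries held RNA of primary skeletal muscle cells, grown from chicken (Gallus gallus) embryos and used at passage 1, with 3 libraries of differentiated myotubes and 3 libraries of proliferating myoblasts. Myotubes are the multinucleate cells that form when myoblasts, the single precursor cells of skeletal muscle, leave the cell cycle and fuse. The myotube cultures were kept in RPMI-1640 with 2% horse serum, against RPMI-1640 with 15% fetal bovine serum for the myoblasts, and both media held 2% penicillin and streptomycin. The kind and the amount of serum therefore differed together with the state of the cells. The age of the embryos, the time in differentiation medium and whether replicates came from separate cultures are not stated in the labels, so the p-values cover no more than the spread among these libraries, part or all of which may be technical.

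At the neuromuscular junction, acetylcholine released by the motor nerve opens a pentameric channel in the muscle membrane. In embryonic muscle the channel is built of alpha, beta, gamma and delta subunits, and in adult mammalian muscle an epsilon subunit takes the place of gamma. Agrin, a heparan sulphate proteoglycan, binds the receptor LRP4. LRP4 activates the receptor tyrosine kinase MuSK, which the adaptor DOK7 helps to activate from inside the cell. The scaffold protein rapsyn then packs the receptors into clusters, and ColQ, a collagen-like tail, anchors acetylcholinesterase in the synaptic basal lamina. The nerve makes a splice form of agrin that is far more active in clustering than the muscle form, and counts per gene do not separate the forms.

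Total counts ran from 21893152 to 23519295 in the myotube libraries and from 23164541 to 27546527 in the myoblast libraries. Muscle genes were present in every library: 11 of 13 listed symbols of muscle markers had an entry. Their summed level was 1949 to 2043 FPKM (reads scaled to gene length and library size) in myotubes and 3135 to 6484 FPKM in myoblasts. In the comparison of the groups 6 of these markers fell, 1 rose (MYBPC1) and 4 had no call. The largest falls were those of CAV3 and desmin (DES). The myotube label was thus not matched by a rise of most of these listed markers. Among all tested genes 29.1% fell and 30.0% rose, the shares to set beside this and the following counts of called markers. Markers of other cells differed too, although the summed leukocyte markers overlapped between the groups. Of 13 fibroblast markers 12 had an entry, summing to 4582 to 5299 FPKM in myotubes and 1280 to 2127 FPKM in myoblasts. COL1A2 was the most abundant, at a mean of 2408 FPKM in myotubes and 649.5 FPKM in myoblasts. When tested, 11 fibroblast markers gave 10 rises and 1 fall, POSTN. Of 8 leukocyte markers 7 had an entry, summing to 116.7 to 123.1 FPKM in myotubes and 61.2 to 122.5 FPKM in myoblasts. These 7 gave 3 rises, 1 fall (CD3E) and 3 with no call. Of 15 nerve and Schwann cell markers 13 had an entry, summing to 24.2 to 27.9 FPKM in myotubes and 51.2 to 67.3 FPKM in myoblasts, with PMP22 the most abundant at a mean of 17.2 FPKM in myotubes and 43.6 FPKM in myoblasts. Of 7 of these that were tested 4 fell and 1 rose, NEFL, a neurofilament subunit, at 6.30 FPKM in myotubes and 0.931 FPKM in myoblasts. CHAT, the enzyme that makes acetylcholine in motor neurons, had 0 FPKM in all 6 libraries. The part of these cell types in the results below was not tested, and in bulk RNA fewer cells of a type and less RNA per cell cannot be told apart. Myoblast replicate 3 stood apart from the other myoblast libraries in muscle, fibroblast and leukocyte markers. The calls of the 9 genes and some of the other results are therefore also given without it. With that library left out, 7 of 11 tested muscle markers fell, 1 rose and 3 had no call. The 7 leukocyte markers then gave 5 rises, 1 fall and 1 with no call, while fibroblast markers stayed at 10 rises and 1 fall. Among all tested genes in that comparison 30.2% fell and 31.3% rose.

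All 9 genes passed the filter on low counts and were tested. AGRN, LRP4, DOK7 and CHRND fell in myotubes, COLQ rose, and CHRNA1, CHRNG, MUSK and RAPSN had no call (edgeR quasi-likelihood test, Benjamini-Hochberg adjusted p under 0.05). The 5 calls among 9 genes stand against 59.1% of the 15959 genes tested, and the 4 falls against 29.1%, the 1 rise against 30.0%. Over these 15959 genes 4785 rose and 4651 fell. By limma on TPM, which is FPKM rescaled to 1 total in every library, 3539 rose and 5482 fell among 15316 genes. The median log2 change of the 9 genes was -0.75 (myotube minus myoblast). In 6 of the 9 genes every myotube library lay on the same side of every myoblast library in FPKM, which is near the 66.7% of all tested genes for which this was so. Without myoblast replicate 3 the calls were 3 rises (CHRNA1, MUSK and COLQ) and the same 4 falls, and the median was -0.20, against 31.3% rises and 30.2% falls among all genes in that comparison.

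**Figure D1:**
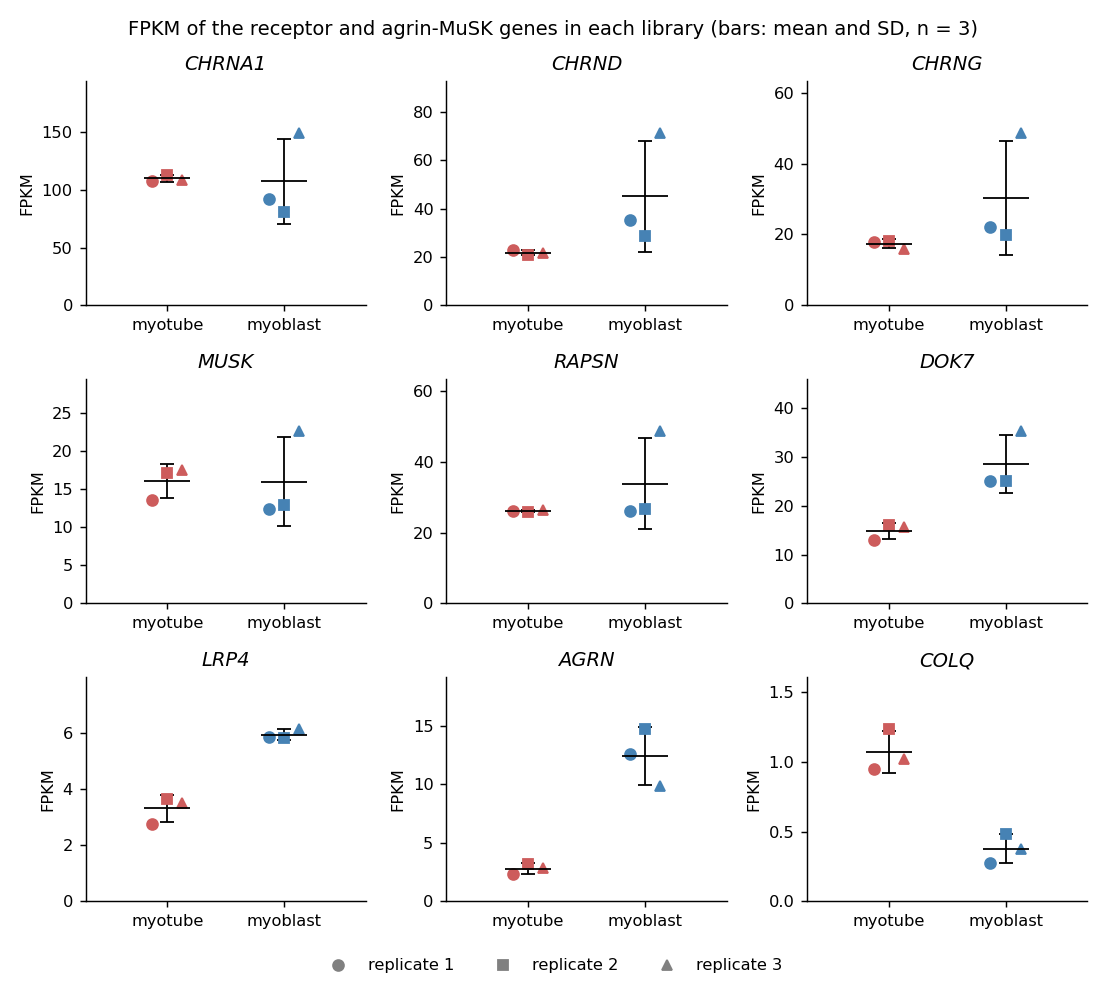
FPKM of each of the 9 genes (vertical axes, each from 0) in the myotube and myoblast libraries; symbols mark the replicates, and bars give the mean and SD of 3 libraries. Myoblast replicate 3 is the highest library for CHRNA1, CHRND, CHRNG, MUSK, RAPSN, DOK7 and LRP4. For AGRN, with 12.6, 14.7 and 9.82 FPKM in myoblasts, it is the lowest of the myoblast libraries.

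CHRNA1 encodes the alpha subunit, which carries the main part of the acetylcholine binding sites (chromosome 7, 16865856 to 16875595, plus strand; coordinates here are those of the authors' tables, and the labels name no genome build). It had 108, 113 and 109 FPKM in myotubes 1 to 3, against 92.5, 81.0 and 150 FPKM in myoblasts 1 to 3. The myotube libraries lay together, and the myoblast libraries lay on both sides of them. The log2 change was 0.08 ± 0.22 (SE), with no call (edgeR quasi-likelihood adjusted p = 0.769). Without myoblast replicate 3 it was 0.41 and was called higher in myotubes (edgeR quasi-likelihood adjusted p = 0.00194), and without myoblast replicate 1 or 2 it was -0.02 and -0.10 with no call. On TPM it was -0.02.

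CHRND encodes the delta subunit and CHRNG the gamma subunit of the embryonic receptor. The pair lie head to tail on the plus strand of chromosome 9, CHRND at 15648455 to 15651873 and CHRNG at 15652611 to 15656841, with 737 bases between them. CHRND had 23.0, 21.1 and 21.7 FPKM in myotubes, against 35.3, 28.6 and 71.4 FPKM in myoblasts, with no overlap between the groups. It fell 2.00-fold (log2 change -0.997 ± 0.31, edgeR quasi-likelihood adjusted p = 0.0238). This call did not hold when any 1 myotube library was left out, with edgeR quasi-likelihood adjusted p of 0.0604, 0.0820 and 0.0752 without replicates 1, 2 and 3. Without myoblast replicate 3 the fall was smaller, at -0.47, and was called (edgeR quasi-likelihood adjusted p = 0.00348).

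CHRNG had 18.0, 18.2 and 16.0 FPKM in myotubes, against 22.1, 19.9 and 48.7 FPKM in myoblasts. Its groups did not overlap either, but myoblast replicate 2 lay close above the highest myotube library. The log2 change was -0.75 ± 0.32 with no call (edgeR quasi-likelihood adjusted p = 0.0747). When myoblast replicate 1 or 2 was left out it was called lower, at -0.94 and -0.99 (edgeR quasi-likelihood adjusted p = 0.0465 and 0.0230), and when replicate 3 was left out it stood at -0.20 with no call. CHRNE, which encodes the adult epsilon subunit in mammals, had no entry of that name, so the exchange of gamma for epsilon was not analysed here.

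The make-up of the receptor message was compared by dividing the FPKM of a gene in each library by that of CHRNA1. The ratio also carries the changes of CHRNA1 itself. In myoblast replicate 3 CHRNA1 was at 1.72 times the mean of myoblast replicates 1 and 2, where the median of all tested genes was 0.945 times. The CHRND ratio was 0.213, 0.186 and 0.199 in myotubes, against 0.381, 0.354 and 0.477 in myoblasts. The CHRNG ratio was 0.167, 0.161 and 0.147 in myotubes, against 0.239, 0.245 and 0.325 in myoblasts. Both ratios were lower in every myotube library than in any myoblast library, so that delta and gamma message made up less per alpha message in myotubes. The mean CHRND ratio in myotubes was 0.493 times that in myoblasts, or 0.542 times without myoblast replicate 3, and the mean CHRNG ratio was 0.586 times, or 0.653 times without that library. The ratio to CHRNA1 was lower without overlap for 6 of the other 8 genes, and this was so for 21.6% of all tested genes. The level of these ratios depends on the gene length used: the deposited FPKM of CHRNA1 implied a length of 2336 bases where the length column gave 3504, and with the column's length the mean CHRND ratio was 0.292 in myotubes and 0.592 in myoblasts.

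**Figure D2:**
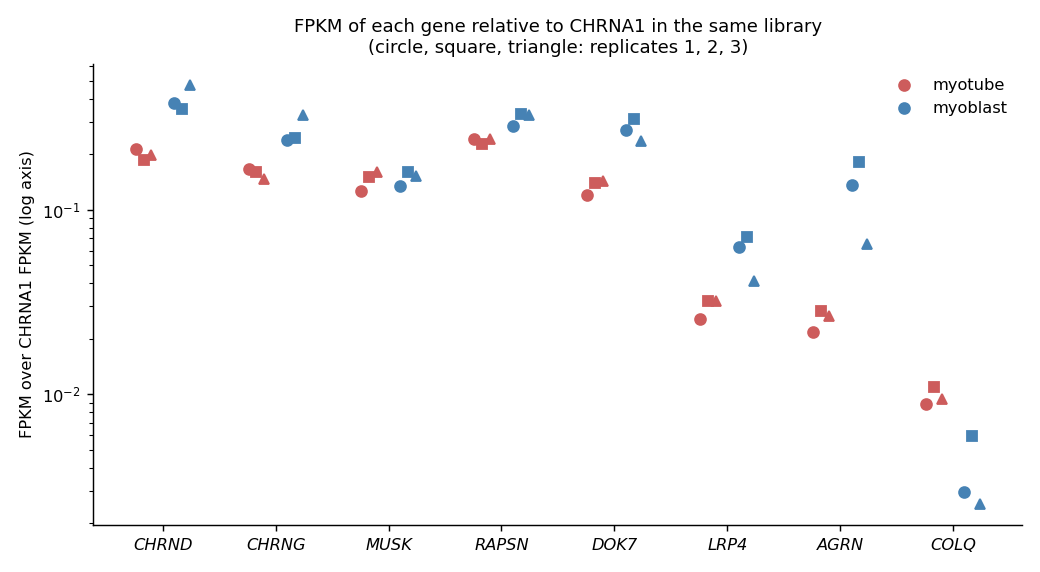
FPKM of each gene divided by the FPKM of CHRNA1 in the same library, on a log axis, for myotubes (left of each pair) and myoblasts (right). The groups overlap for MUSK, stand higher in myotubes for COLQ and are lower in myotubes for the other genes.

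RAPSN encodes rapsyn, the scaffold that binds the receptor from inside the cell (chromosome 5, 22862958 to 22872275, plus strand). It had 26.1, 25.8 and 26.3 FPKM in myotubes, against 26.3, 26.6 and 48.8 FPKM in myoblasts. Of the 6 libraries only myoblast replicate 3 stood away from the others. The log2 change was -0.33 ± 0.24 with no call (edgeR quasi-likelihood adjusted p = 0.255), and it was 0.05 with no call without that library. The ratio of RAPSN to CHRNA1 was 0.237 ± 0.00805 in myotubes and 0.313 ± 0.0254 in myoblasts (SD, n = 3 each), and did not overlap between the groups.

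MUSK encodes the receptor tyrosine kinase at the centre of the pathway (chromosome Z, 66717395 to 66761771, plus strand). It had 13.6, 17.2 and 17.6 FPKM in myotubes, against 12.4, 12.9 and 22.7 FPKM in myoblasts. As with CHRNA1, the myotube libraries lay above myoblast replicates 1 and 2 and below replicate 3. The log2 change was 0.06 ± 0.24 with no call (edgeR quasi-likelihood adjusted p = 0.856), and -0.05 on TPM. Without myoblast replicate 3 it was 0.42 and was called higher (edgeR quasi-likelihood adjusted p = 0.00820). MUSK kept close to CHRNA1 from library to library, with a ratio of 0.146 ± 0.0183 in myotubes and 0.148 ± 0.0132 in myoblasts.

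DOK7 encodes the cytoplasmic adaptor that binds and activates MuSK (chromosome 4, 82476481 to 82501693, minus strand). It had 12.9, 15.9 and 15.6 FPKM in myotubes, against 25.0, 25.1 and 35.3 FPKM in myoblasts. All myotube libraries lay below all myoblast libraries. DOK7 fell 1.86-fold (log2 change -0.89 ± 0.16, edgeR quasi-likelihood adjusted p = 0.00180), and was at -0.69 without myoblast replicate 3, where it was still called.

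LRP4, the receptor for agrin, is a member of the low-density lipoprotein receptor family (chromosome 5, 23347084 to 23385831, plus strand). It had 2.76, 3.65 and 3.51 FPKM in myotubes, against 5.85, 5.80 and 6.14 FPKM in myoblasts. The 3 myoblast libraries were close together, replicate 3 included, and lay above every myotube library. LRP4 fell 1.73-fold (log2 change -0.79 ± 0.12, edgeR quasi-likelihood adjusted p = 0.000623).

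AGRN encodes agrin, the ligand (chromosome 21, 2702980 to 2766080, minus strand). It had 2.34, 3.21 and 2.88 FPKM in myotubes, against 12.6, 14.7 and 9.82 FPKM in myoblasts. Each myoblast library was far above each myotube library, and replicate 3 was here the lowest of the myoblast libraries. AGRN fell 4.23-fold (log2 change -2.08 ± 0.16, edgeR quasi-likelihood adjusted p = 2.00e-05), a fall of at least 2-fold that 11.8% of tested genes also showed. An entry without a symbol overlaps it on the same strand by 5520 bases and had at most 5 counts in any library. The ligand and its receptor changed places in level: AGRN was at 0.847, 0.878 and 0.820 times LRP4 in myotubes 1 to 3, against 2.15, 2.54 and 1.60 times LRP4 in myoblasts 1 to 3, and the same order held with the lengths of the length column.

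COLQ, the collagen tail of acetylcholinesterase (chromosome 2, 34025221 to 34060317, minus strand), was the only 1 of the 9 genes called higher with all 6 libraries. It had 30, 38 and 30 counts in myotubes, against 9, 15 and 14 counts in myoblasts, or 0.952, 1.24 and 1.02 FPKM against 0.273, 0.483 and 0.379 FPKM. The groups did not overlap, and the rise was 2.93-fold (log2 change 1.55 ± 0.29, edgeR quasi-likelihood adjusted p = 0.00206). These are low counts, so the size of the rise is known less well than the falls of AGRN and LRP4. On log2(FPKM + 1), a scale that compresses low values, it was 0.59 and was called. ACHE, the enzyme that COLQ anchors, had no entry of that name and was not analysed here.

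**Figure D3:**
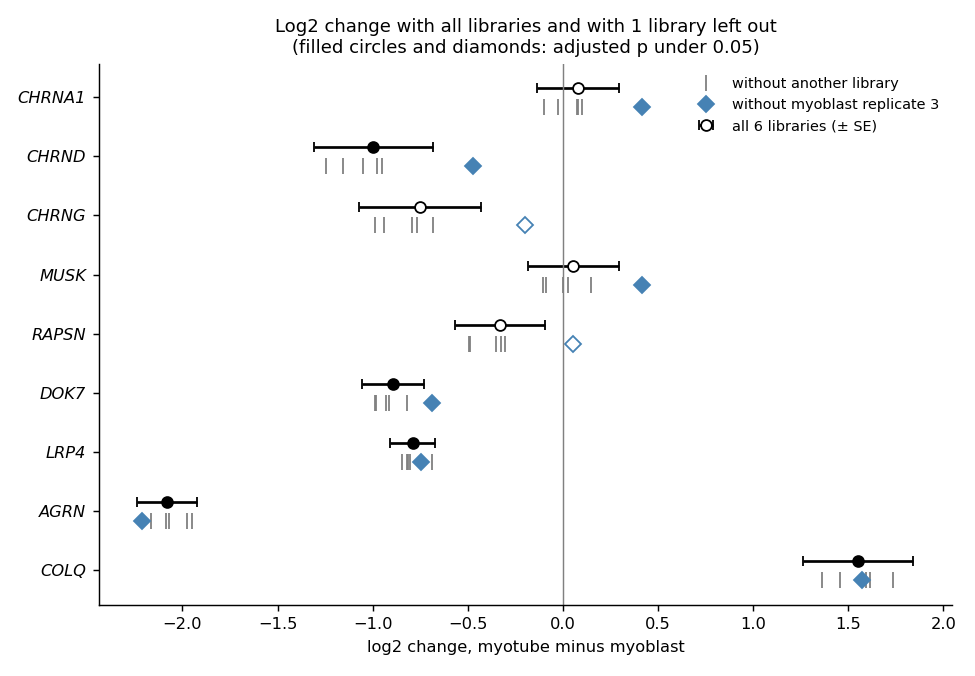
Log2 change, myotube minus myoblast, of each gene with all 6 libraries (circles, bars are SE) and with 1 library left out (ticks, and diamonds where it is myoblast replicate 3); filled circles and diamonds have an edgeR adjusted p under 0.05. Leaving out myoblast replicate 3 moves CHRNA1 to 0.41, MUSK to 0.42 and CHRND to -0.47. CHRND, CHRNG, DOK7, LRP4, AGRN and COLQ stay on their side of 0 whichever library is left out.

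By mean FPKM the order of levels in myotubes was CHRNA1 (110), RAPSN (26.1), CHRND (21.9), CHRNG (17.4), MUSK (16.1), DOK7 (14.8), LRP4 (3.31), AGRN (2.81) and COLQ (1.07). In that order the ranges of CHRNG and MUSK, of MUSK and DOK7 and of LRP4 and AGRN overlapped across libraries. Within each myotube library, however, LRP4 stood above AGRN, also with the lengths of the length column. MUSK stood above DOK7 in all 3 by deposited FPKM and below it in all 3 with those lengths, so the order of that pair rests on the length used. In myoblasts the order was CHRNA1 (108), CHRND (45.1), RAPSN (33.9), CHRNG (30.2), DOK7 (28.5), MUSK (16.0), AGRN (12.4), LRP4 (5.93) and COLQ (0.379). There the ranges of the neighbours from CHRND to DOK7 overlapped across libraries, as did those of MUSK and AGRN, while MUSK lay below DOK7 and LRP4 below AGRN in all 3 libraries. Within single libraries CHRNA1 came first and COLQ last in all 6. RAPSN stood above CHRND in all 3 myotube libraries, and CHRND above RAPSN in all 3 myoblast libraries. CHRNA1 had a higher mean than 93.3% of entries with a symbol, CHRND than 75.9%, MUSK than 57.5%, AGRN than 40.5%, LRP4 than 33.1% and COLQ than 18.9%.

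The 9 genes split by how they stood in myoblast replicate 3. Set against the mean of myoblast replicates 1 and 2, this library had 2.32 times the FPKM of CHRNG, 2.24 times that of CHRND, 1.85 times that of RAPSN, 1.79 times that of MUSK, 1.72 times that of CHRNA1 and 1.41 times that of DOK7. LRP4 and COLQ were at 1.05 and 1.00 times, and AGRN at 0.718 times. A ratio of at least 1.4, a limit chosen after the values were seen, was held by these 6 of 9 genes, by 10 of 11 tested muscle markers and by 6 of 7 leukocyte markers, but by 1 of 11 fibroblast markers and by 10.3% of all tested genes. A ratio under 0.8, a limit also chosen after the values were seen, was held by AGRN, by 10 of 11 tested fibroblast markers and by 23.8% of all tested genes. Between the groups AGRN fell in myotubes, and of the 11 fibroblast markers 10 rose and 1 fell. The marker that fell was POSTN (log2 change -1.70), which was at 0.790 times in myoblast replicate 3. What part fibroblasts had in the level of AGRN was not tested. The receptor subunits, RAPSN and MUSK thus stood high in the library in which muscle and leukocyte markers stood high and fibroblast markers low. What part these had in the levels of the receptor genes was not tested.

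**Figure D4:**
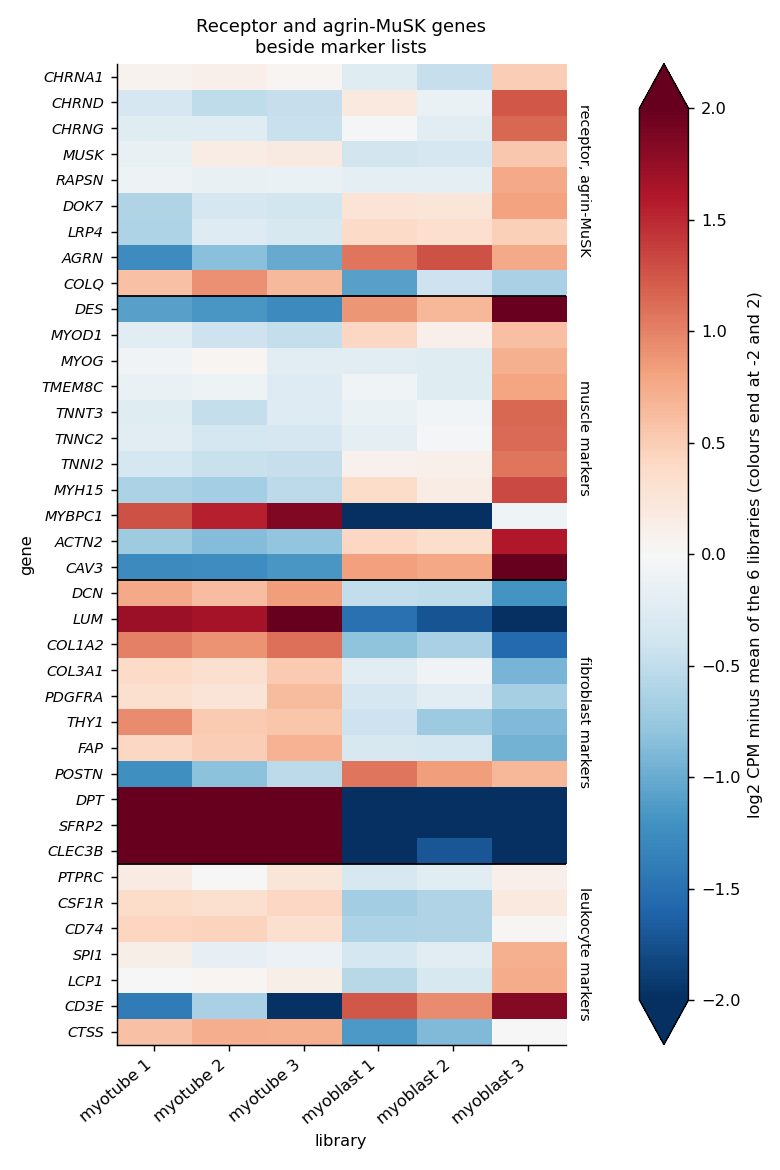
Log2 CPM (counts scaled to library size) of each gene minus its mean over the 6 libraries, myotube libraries on the left, for the 9 genes and for the tested markers of muscle, fibroblasts and leukocytes; colours end at -2 and 2. In myoblast replicate 3, CHRND is at 1.25 and CHRNG at 1.15, AGRN at 0.76 is the lowest of the myoblast libraries, and most muscle markers are at their highest.

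The genes whose pattern over the 6 libraries was nearest to that of CHRNA1, MUSK and AGRN were found among 8290 others with a symbol and a mean of at least 2 FPKM. Likeness was the root mean square difference of log2 CPM, each gene centred on its own mean, so that 0 means the same pattern. Nearest to CHRNA1 were NCKAP1L and TPM2 (0.07 each), NBEAL2 (0.08), SLC12A9 and FBXL7 (0.09 each). TPM2, a tropomyosin of muscle, had 346, 356 and 330 FPKM in myotubes, against 300, 289.5 and 496 FPKM in myoblasts. NCKAP1L belongs to the actin-regulating WAVE complex of blood cells. Nearest to MUSK were PLA1A, RETREG1, FKBP12.6, SSPN and CADM1 (0.07 to 0.12), of which SSPN encodes sarcospan, of the dystrophin complex. MUSK and CHRNA1 were themselves 0.13 apart, CHRND and CHRNG were 0.52 and 0.41 from CHRNA1, and AGRN was 1.195 from it. Nearest to AGRN were the basement membrane collagens COL4A1 (0.08) and COL4A2 (0.10), the replication helicase subunit MCM2, the spindle protein ASPM and the collagen prolyl hydroxylase P3H2 (0.12 each). COL4A1 had 19.7, 28.2 and 26.6 FPKM in myotubes, against 110, 115 and 89.1 FPKM in myoblasts. All the libraries of a group share 1 state, so many genes with a like difference between the groups lie near AGRN. CHRNA1 and MUSK had no call between the groups. What their nearest genes shared with them was a high myoblast replicate 3, at 1.46 (FBXL7) to 1.87 (RETREG1) times the mean of myoblast replicates 1 and 2. The likeness to CHRNA1 and MUSK thus leans on 1 library.

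Genes that act beside the receptor and the agrin pathway were counted from lists, described here by their counts and medians beside those of all tested genes, of which 29.1% fell and 30.0% rose, with a median of 0.0. Of 28 tested genes of MuSK signalling and receptor clustering, 11 fell, 6 rose and 11 had no call (median -0.15), so about as many were called as among all tested genes, at 59.1%. APC, which links receptor clusters to microtubules, fell to 17.5 ± 1.63 FPKM in myotubes, against 48.7 ± 11.2 FPKM in myoblasts (n = 3 each, log2 change -1.42 ± 0.17). The chaperone HSP90AA1 fell to 656 ± 14.8 FPKM in myotubes, against 1423 ± 47.6 FPKM in myoblasts (-1.06 ± 0.07). The adhesion molecule NCAM1 fell (-1.13 ± 0.17), and the ligand WNT9A rose to 10.3 ± 2.81 FPKM in myotubes, against 5.05 ± 0.799 FPKM in myoblasts (1.09 ± 0.21). WNT4, a lower ligand with a mean of 1.09 FPKM and named here after its value was seen, went the other way. It fell to 0.337 ± 0.161 FPKM in myotubes, against 1.84 ± 0.699 FPKM in myoblasts (-2.39 ± 0.44). The adaptors CRK and CRKL, which DOK7 recruits and which are named here after their values were seen, both fell, at -0.58 and -0.56, but CRK lost its call without any 1 of 4 libraries, myotube replicates 2 and 3 and myoblast replicates 1 and 2 (edgeR quasi-likelihood adjusted p = 0.111, 0.135, 0.120 and 0.108). Adjusted p by edgeR quasi-likelihood was at most 0.00238 for the 4 genes named first.

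Neuregulin, made by nerve and muscle, acts on ErbB receptors and, through ETS factors, on synaptic genes. Of 8 tested genes of this list, 5 fell, none rose and 3 had no call (median -0.39), where 29.1% of all tested genes fell and 30.0% rose. Without myoblast replicate 3 there were 6 falls and 1 rise, with ETV4 added to the falls and ETV5 as the rise. In that comparison 30.2% of all tested genes fell and 31.3% rose. ERBB4 fell to 1.21 ± 0.326 FPKM in myotubes, against 5.48 ± 3.36 FPKM in myoblasts (n = 3 each, log2 change -2.15 ± 0.43, edgeR quasi-likelihood adjusted p = 0.00272). ERBB3 fell to 3.18 ± 0.278 FPKM in myotubes, against 7.59 ± 4.11 FPKM in myoblasts (-1.21 ± 0.34, edgeR quasi-likelihood adjusted p = 0.0152). Myoblast replicate 3 held 2.63 times the ERBB4 and 2.34 times the ERBB3 of the other myoblast libraries, and without it their changes were -1.49 and -0.65, both still called. For ERBB3 the call ended when myotube replicate 2 was left out (edgeR quasi-likelihood adjusted p = 0.0544), and likewise for myotube replicate 3 (0.0605). GABPB1, a subunit of the ETS factor that binds synaptic promoters, fell by 0.46 on the log2 scale (edgeR quasi-likelihood adjusted p = 0.00212). ERBB2 fell by 0.32 (edgeR quasi-likelihood adjusted p = 0.0199), a call that was lost without myotube replicate 2, myotube replicate 3 or myoblast replicate 1 (0.0553, 0.0694 and 0.0550).

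Of 15 tested genes of the synaptic basal lamina and the dystrophin scaffold, 7 fell, 3 rose and 5 had no call (median -0.43), where 29.1% of all tested genes fell and 30.0% rose. COL4A2 fell to 19.1 ± 4.34 FPKM in myotubes, against 83.8 ± 14.0 FPKM in myoblasts (n = 3 each, log2 change -2.08 ± 0.18), and COL4A1 by 2.02. Dystrobrevin alpha, DTNA, which stabilises receptor clusters, fell to 15.9 ± 1.02 FPKM in myotubes, against 62.8 ± 30.6 FPKM in myoblasts (-1.93 ± 0.31, or -1.43 without myoblast replicate 3). The laminin chain LAMA2, dystrophin (DMD) and its synaptic relative utrophin (UTRN) fell, by 1.67, 1.22 and 0.67 on the log2 scale. Adjusted p by edgeR quasi-likelihood was at most 0.00397 in these genes. LAMB2, the laminin chain of the synaptic cleft, named here after its value was seen, had 20.9, 22.2 and 17.9 FPKM in myotubes, against 13.9, 13.9 and 18.5 FPKM in myoblasts, and its groups overlapped. Its log2 change was 0.45 (edgeR quasi-likelihood adjusted p = 0.0243), a call that was lost with a replicate block (0.0514), on TPM (0.0907) and without any 1 of 4 libraries, myotube replicates 1 and 2 and myoblast replicates 1 and 2 (0.0781 to 0.0878).

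Transcription of the receptor genes is driven by the myogenic factors, which bind E-boxes in their promoters and which the Id proteins hold back. Of 20 tested regulators 15 fell, none rose and 5 had no call (median -0.49), where 29.1% of all tested genes fell and 30.0% rose. Without myoblast replicate 3, 14 fell and none rose (median -0.39), where 30.2% of all tested genes fell and 31.3% rose. Id1 fell to 28.7 ± 4.12 FPKM in myotubes, against 196 ± 16.2 FPKM in myoblasts (n = 3 each, log2 change -2.71 ± 0.13), and ID2 by 1.89. The other Id genes of the list, ID4 and Id3, are named here after their values were seen. ID4 fell less, by 0.33 (edgeR quasi-likelihood adjusted p = 0.0141). Id3, by mean FPKM the most abundant of these Id genes, had no call (0.18, edgeR quasi-likelihood adjusted p = 0.198). Its mean was 259.5 FPKM in myotubes and 238.2 FPKM in myoblasts, and its groups overlapped. Among the activators MYF5 fell by 2.93, MYF6 by 1.94 and MYOD1 by 0.75, each with an edgeR quasi-likelihood adjusted p of at most 0.00141. MYOG, the factor of differentiation, had 298, 328 and 274 FPKM in myotubes, against 287, 287 and 526 FPKM in myoblasts. Like MUSK and RAPSN, it had 1 myoblast library far above the rest, replicate 3, and no call (-0.24 ± 0.24, edgeR quasi-likelihood adjusted p = 0.408; 0.14 without that library).

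Of the other nicotinic subunits 4 were tested, CHRNA2, CHRNA4, CHRNA5 and CHRNB2, which serve receptors of neurons. Among these 2 rose and 2 had no call (median 1.44), where 30.0% of all tested genes rose. CHRNB2 rose to 4.59 ± 0.981 FPKM in myotubes, against 0.887 ± 0.204 FPKM in myoblasts (n = 3 each, log2 change 2.43 ± 0.24, edgeR quasi-likelihood adjusted p = 8.11e-05). CHRNA2, named here after its value was seen, rose to 1.19 ± 0.105 FPKM in myotubes, against 0.232 ± 0.00866 FPKM in myoblasts (2.40 ± 0.25). Both levels are far below that of CHRNA1. Of 3 tested genes of the cholinesterases and their anchors, PRIMA1, the membrane anchor of acetylcholinesterase, fell to 1.00 ± 0.108 FPKM in myotubes, against 5.59 ± 1.35 FPKM in myoblasts (-2.42 ± 0.29, edgeR quasi-likelihood adjusted p = 0.000199). It thus moved in the direction opposite to COLQ, the anchor in the basal lamina. Butyrylcholinesterase, BCHE, had 15.5, 17.9 and 18.8 FPKM in myotubes, against 8.85, 8.77 and 20.2 FPKM in myoblasts, with no call (0.50 ± 0.31). Without myoblast replicate 3 it was called higher, at 1.05.

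**Figure D5:**
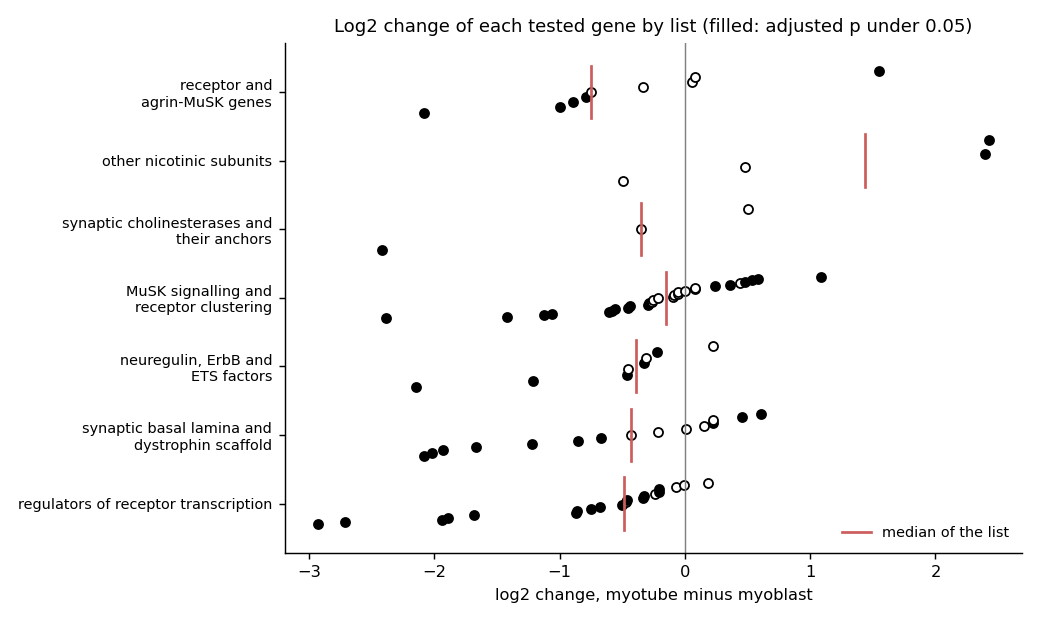
Log2 change, myotube minus myoblast, of each tested gene (points) in the receptor and agrin-MuSK genes and in 6 lists of related genes; filled points have an edgeR adjusted p under 0.05 and red lines are medians. Medians run from 1.44 for the 4 other nicotinic subunits to -0.75 for the receptor and agrin-MuSK genes.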

How the data were processed

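HISAT and HTSeq are the tools named, per the submitters' processing notes. Versions, genome build, annotation, strand setting and filters: not given in the sources used here. Per the file headers, each deposited table gives a whole-number read count per gene and the FPKM the authors computed from it. FPKM equalled the count over the table's length and the library total within 1% for 66.6% of values. In CHRNA1, CHRND, MUSK, RAPSN, AGRN and COLQ it implied a shorter length, and the direction over all genes was not counted. Lines that named no gene, 2 per library, were left out.

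Counts were tested with edgeR 4.0.16 in R 4.3.3 (quasi-likelihood, TMM, filterByExpr with a minimum count of 10 and total of 15, 2 groups, no block, two-sided, Benjamini-Hochberg over 15959 genes, call under 0.05). SE is the absolute log2 change over the root of F, an approximation. Fits used simulated counts first as a check. Alternatives were DESeq2 1.42.0 and its size factors, no filter, limma 3.58.1 on FPKM (pseudocounts 1 and 0.1) and TPM, a replicate block, and leaving out each library. Groups came from the developmental stage labels and replicate numbers from the titles. The genes, lists and tests were chosen with earlier results of these data known. Besides the receptor and agrin-MuSK genes, the text names up to 4 called genes of each list with the largest change and a mean of at least 2 FPKM, MYOG, MYOD1, ACHE, CHRNE, ERBB3, UTRN and DMD, and the 5 nearest patterns of CHRNA1, MUSK and AGRN. Further genes were named after their values were seen, among them CRK, CRKL, LAMB2, CHRNA2, BCHE, NEFL, PMP22, DES, CAV3 and MYBPC1. Lists were matched by symbol. Reads of overlapping or antisense genes cannot be told apart where strand was not used.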

Additional observations from a re-analysis of the deposited data

How the results depend on the processing

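AGRN, LRP4, DOK7 and COLQ kept their direction and their call under all alternatives run. CHRND lost its call by limma on log2(FPKM + 1) with no filter (-0.90, adjusted p = 0.0558). On TPM, which moved the median of all tested genes to -0.13, CHRNA1 was at -0.021 and MUSK at -0.046, neither called. Leaving out 1 library at a time gave log2 changes from -0.10 to 0.41 for CHRNA1, -1.25 to -0.47 for CHRND, -0.99 to -0.20 for CHRNG, -0.10 to 0.42 for MUSK, -0.49 to 0.051 for RAPSN and -0.40 to 0.14 for MYOG, and from 1 to 3 rises and 3 to 5 falls among the 9 genes. Over all tested genes, these fits called from 25.7% to 31.3% higher and from 23.0% to 30.2% lower. ERBB3, ERBB2, CRK and LAMB2 also lost their calls in some of these fits. The cause of these changes was not tested. Deviations of samples with the same replicate number correlated by 0.04, 0.03 and -0.05, so the numbers were not taken to pair the samples. With a replicate block 1 of the 9 genes rose and 4 fell, as without it, CHRND was at -0.87, and 4579 genes rose and 4381 fell in all. The list of the basal lamina and dystrophin scaffold then had 1 rise in place of 3, with the calls of LAMB2 and LAMC1 lost. The regulators of receptor transcription had 12 falls in place of 15, with the calls of HDAC4, MEF2D and SP3 lost. The list of MuSK signalling and receptor clustering had 10 falls and 5 rises in place of 11 and 6. The neuregulin list kept 5 falls, with the call of GABPA lost and that of ETV4 gained. COLQ, with 9 to 38 counts per library, is the gene most limited by depth.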
